A study of Mus musculus with 2 samples.

Results

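Actins, tropomyosins and actin-binding proteins were followed here in the livers of 2 groups of mice: 10 genes, chosen as named members of this family, out of 18193 genes that the arrays measured with a probe set of a single gene. All 29 probe sets that the platform annotation assigned to a single member entered the account, out of 34945 that named 1 gene. A probe set is a group of short probes that together read 1 transcript region, and its signal is a linear fluorescence value.

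The study examined precancerous liver of mice with a hepatocyte-specific Pik3ca transgene, which activates phosphoinositide 3-kinase signalling. Both groups carried that transgene, and they differed at Kdm3a, the gene of a histone H3 lysine 9 demethylase: Pik3caTg;Kdm3aWT was wild type and Pik3caTg;Kdm3aKO was knockout. The age and sex of the mice and the promoter of the transgene are not stated in the labels, and mice without the transgene were not analysed here. Each group was 1 array of total RNA from whole liver, so 2 arrays were compared. Whether an array holds 1 animal or a pool is not stated. No spread between animals could be had, no test was run, and every difference describes these arrays rather than the genotypes. The transgene is restricted to hepatocytes, whereas the RNA came from all liver cells, and in such bulk RNA fewer cells of a type and less RNA per cell cannot be told apart.

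Cytoplasmic beta and gamma actin, encoded by Actb and Actg1, polymerise into the filaments that give non-muscle cells their shape and let them move. Thymosins hold a reserve of unpolymerised actin, tropomyosins lie along filaments and decide which partners can bind, filamin joins filaments into networks, and myosin II pulls on them. In liver, hepatocytes keep an actin belt around the bile canaliculus, and stellate cells that turn into myofibroblasts build contractile stress fibres. Free actin also holds back the coactivators Mrtfa and Mrtfb, which with the transcription factor Srf act on CArG boxes, short AT-rich elements first described in actin gene promoters.

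The members' promoters were searched for this element in RefSeq windows of build GRCm38.p6, each running from 250 bases before to 50 bases after a start site. Windows were found for 9 of the 10 genes, 12 windows in all. The gene without a window was Actb, so its promoter was not searched. A CArG box was matched on either strand in those of Actg1 and Myl9, against 1.63% of all 32851 windows of that length. The stretches below are shown 5′ to 3′ on the gene's strand and stop before the first base of the annotated gene. Capitals mark the CArG box in Actg1 (chr11:120348496-120348745, minus strand) and Myl9 (chr2:156775214-156775407, plus strand).
Actg1: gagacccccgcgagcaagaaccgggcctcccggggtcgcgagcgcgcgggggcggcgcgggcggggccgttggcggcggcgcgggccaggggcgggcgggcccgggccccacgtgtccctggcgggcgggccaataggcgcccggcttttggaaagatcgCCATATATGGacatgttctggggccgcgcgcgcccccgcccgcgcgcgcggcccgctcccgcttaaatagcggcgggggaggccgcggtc
Myl9: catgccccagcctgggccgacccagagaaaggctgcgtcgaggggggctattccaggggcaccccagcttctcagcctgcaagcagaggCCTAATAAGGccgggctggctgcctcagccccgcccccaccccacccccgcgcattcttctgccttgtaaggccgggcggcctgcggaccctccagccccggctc
The box began 90 bases before the start site of the Actg1 window and 161 bases before that of the Myl9 window. Tmsb10 and Tpm4, which were the lowest members with both signals above the floor defined below, held no such letters in these windows and are shown for comparison. In them capitals mark the GC box, GGGCGG or its reverse complement CCGCCC.
Tmsb10: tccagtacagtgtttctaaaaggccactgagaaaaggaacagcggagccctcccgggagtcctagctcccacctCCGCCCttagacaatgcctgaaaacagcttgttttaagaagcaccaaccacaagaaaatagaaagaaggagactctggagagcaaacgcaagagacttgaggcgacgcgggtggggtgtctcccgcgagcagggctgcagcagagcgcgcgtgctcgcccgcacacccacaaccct
Tpm4: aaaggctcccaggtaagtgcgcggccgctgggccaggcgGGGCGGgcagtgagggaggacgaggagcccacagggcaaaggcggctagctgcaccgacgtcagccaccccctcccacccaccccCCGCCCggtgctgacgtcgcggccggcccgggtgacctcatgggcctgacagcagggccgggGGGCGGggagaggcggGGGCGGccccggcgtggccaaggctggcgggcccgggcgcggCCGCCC
The Tmsb10 stretch lies at chr6:72958749-72958998 on the minus strand and belongs to the outermost of 3 windows of that gene. The Tpm4 stretch lies at chr8:72135038-72135287 on the plus strand and holds 5 GC boxes. A GC box was matched in 11 of the members' 12 windows, against 35.7% of all windows. The CCAAT box, CCAAT or ATTGG, was matched in 3 of the 12, those of Actg1, Myh9 and Tpm1, against 37.4% of all windows. The TATA box, TATAAA or its reverse complement TTTATA, was matched in 1 of the 12, against 13.6% of all windows. That was the window of Myh9, with the letters TTTATA beginning 123 bases before the start site. The AP-1 site, TGACTCA or TGAGTCA, was matched in none of them (5.2% of all windows). A match is only a match of letters, and a window without one says nothing about the factor.

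Of the 10 genes, 9 gave less signal in the knockout liver, and for 6 of them the difference reached 2-fold: Tmsb10, Tpm4, Myl9, Tpm1, Flna and Myh9. None was 2-fold higher. Pairs of signals below give the wild-type value first and the knockout value second. Over all 11693 genes kept, 6101 gave less signal in the knockout, 8.96% were at least 2-fold lower and 3.83% at least 2-fold higher. The median log2 ratio of knockout over wild type, the measure used throughout, was -1.16 for the members, -1.01 without Myl9 and -0.02 for all genes. A gene took the ratio of its brightest probe set among those kept, that is, with a mean signal of both arrays of at least 73.7. Signals under a floor of 46.5 were raised to it, so a ratio with such a value is a bound. The knockout signal of Myl9 lay under it, and with the filter this alone put Myl9 past 2-fold. Of the 9 members with both signals at or above the floor 5 were at least 2-fold lower, and of the 11515 such genes in all 7.98% were lower and 3.47% higher by as much. The sole repeat measure was how far the ratios of a gene's several probe sets spread, an SD of 0.447 over 4958 genes, and it says nothing of error between arrays or animals. The ratios of Myh9 and Tpm3, on either side of 2-fold, differed by less than that SD. Of all genes past 2-fold, 70.1% were lower; this share was 53.7% after scaling on poly-A controls, 80.5% after scaling on hybridisation controls and 38.0% after scaling on Actb.

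**Figure D1:**
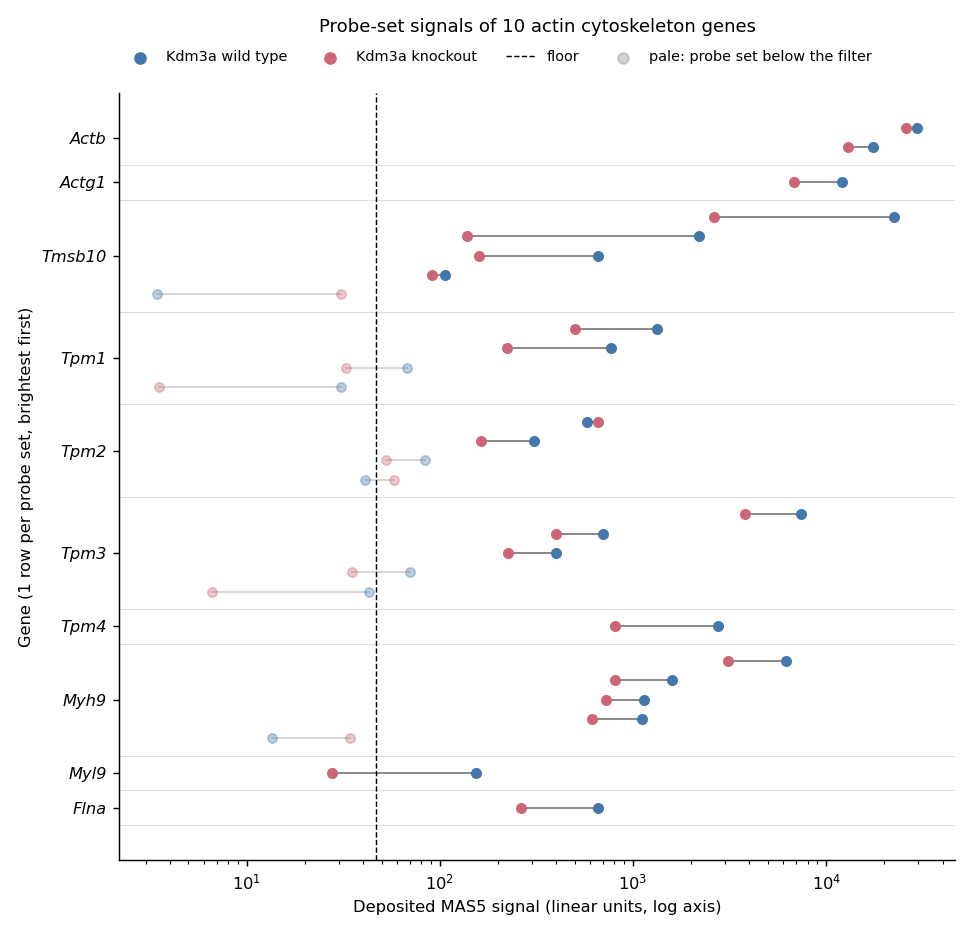
Signals of all 29 probe sets of the 10 genes on a log axis, 1 row per probe set, with the wild-type array in blue and the knockout array in red; the dashed line is the floor of 46.5 and pale rows fell below the filter. The red point lies left of the blue one in 20 of 21 kept rows, with the widest gaps in Tmsb10.

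Actb, the most used reference gene of expression work, was the actin that differed least. Its brighter probe set read 29611 and 25825, a log2 ratio of -0.20. The other read 17443 and 12901, a log2 ratio of -0.44. The knockout array was thus lower by both readings, and by less than the SD between probe sets of a gene. The array also carries 3 control probe sets along the Actb transcript, which are not counted among the members. Their log2 ratios were -0.37 at the 3′ end, -0.55 in the middle and -0.48 at the 5′ end. Scaling on Actb, chosen after the data were seen, turns the ratio of its brighter probe set to 0.12 by construction; its sign stayed negative with the array-median, quantile, loess, hybridisation-control and poly-A scalings.

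Actg1 encodes gamma actin, whose protein is nearly identical to beta actin. Its single probe set read 12086 and 6783, which is 1.78-fold lower, with a log2 ratio of -0.83. The Actg1 ratio was lower than that of Actb, but whether they differ was not tested. The name ending of this probe set, _s_at, marks probes that can read more than 1 transcript, and actin genes have close relatives and processed pseudogenes, so the value is uncertain as a reading of Actg1 alone.

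Tmsb10, thymosin beta 10, which binds actin monomers, had the lowest ratio of the family. Its brightest probe set read 22466 and 2637, 8.52-fold lower. The log2 ratio was -3.09, and 36 of the 11693 genes had a lower one. The remaining kept probe sets did not give the same size. One read 2182 and 139 (log2 ratio -3.97), one 659 and 160 (-2.05), and the dimmest 106 and 90.6 (-0.23). All 4 were lower in the knockout array, from nearly equal to 15.7-fold. All 4 also have names ending in _s_at or _x_at, which mark possible matches to further transcripts, and the fifth probe set lay below the floor on both arrays. Averaged over the 4, the log2 ratio was -2.34.

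The 4 tropomyosin genes ranged from 3.43-fold lower to slightly higher. Tpm4, which encodes a short tropomyosin of non-muscle cells, had 1 probe set, which read 2762 and 805. Its log2 ratio was -1.78, and 264 of all genes kept had a lower one. Tpm1, whose gene gives both muscle and non-muscle forms by splicing and alternative promoters, read 1327 and 501, a log2 ratio of -1.40. Its second kept probe set read 766 and 222, a log2 ratio of -1.78. Both place Tpm1 past 2-fold, and 2 dimmer probe sets of the gene fell under the filter.

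Tpm3, another source of short tropomyosins, read 7401 and 3815, a 1.94-fold difference. The other kept probe sets of Tpm3 had log2 ratios of -0.80 and -0.83 beside -0.96 for the brightest. The 3 readings therefore lay close together, just short of 2-fold. With array-median centring, quantile normalization, loess or scaling on the hybridisation controls the ratio passed 2-fold, at -1.09 in the last case. All 3 probe sets have endings that mark several transcripts, _a_at for the brighter ones and _x_at for the dimmest. For _a_at these can be forms of the same gene. Tpm3 also has processed pseudogenes.

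Tpm2, the tropomyosin best known from muscle, was the sole member with a higher value. Its brightest probe set read 576 and 655, a log2 ratio of 0.19, and a second one read 306 and 164, a log2 ratio of -0.90. These go opposite ways and differ by more than the SD above, so no direction can be given for Tpm2. Their mean was -0.36. Of the dimmer ones below the filter, one read 83.4 and 52.9 and the other 40.8, which is under the floor, and 57.9.

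Myosin II is a motor of heavy and light chains. Myh9 encodes the heavy chain of its form IIA, and its brightest probe set read 6213 and 3087, 2.01-fold lower and -1.01 on the log2 scale. The remaining 3 that were kept, none with an ending that marks several transcripts, had log2 ratios from -0.97 to -0.65. Myh9 was thus lower by 4 of 4 kept readings, at the edge of the size rule. Only the brightest, whose name ends in _s_at and so marks several transcripts, passed 2-fold. With the poly-A controls as the scale Myh9 was at -0.84 and within 2-fold, and with Actb at -0.69. It was also within 2-fold with the mean of kept probe sets (-0.87) and without probe sets whose endings mark several transcripts (-0.97).

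Myl9 encodes a regulatory light chain that is abundant in smooth muscle and myofibroblasts. Its single probe set read 153 and 27.6. The knockout value lies under the floor, so Myl9 was at least 3.29-fold lower. This gene passed the filter through its wild-type signal alone, and with this floor and filter it could not have come out within 2-fold. With the floor raised to the 60th percentile of signals, the ratio was -0.26 and the call ended, so the size for Myl9 rests on a dim reading.

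Flna, filamin A, joins actin filaments into networks and links them to membrane receptors. Its single probe set read 659 and 264, which is 2.50-fold lower, a log2 ratio of -1.32. This probe set has no ending that marks several transcripts, and 638 of all genes kept had a lower ratio.

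Across all probe sets, 21 of 29 were kept, 20 of these were lower and 9 at least 2-fold lower, and 0 were 2-fold higher. Among all 19800 kept probe sets that name 1 gene, 8.19% were at least 2-fold lower and 4.43% at least 2-fold higher. The median over the 21 was -0.96. Probe sets of a gene share their target, so they are repeat readings and not separate observations.

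The family spans most of the range of signal. Actb, Actg1, Tmsb10, Tpm3 and Myh9 lie among the brightest 20% of genes, of which 4.4% were at least 2-fold lower, and 2 of these 5 members were. Tpm1 and Tpm4 lie in the next class of the same size, where 5.35% were lower, and both members were. Flna, which was past 2-fold, and Tpm2, which was not, lie in the middle class (7.99% lower), and Myl9 in the dimmest (14.8% lower).

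**Figure D2:**
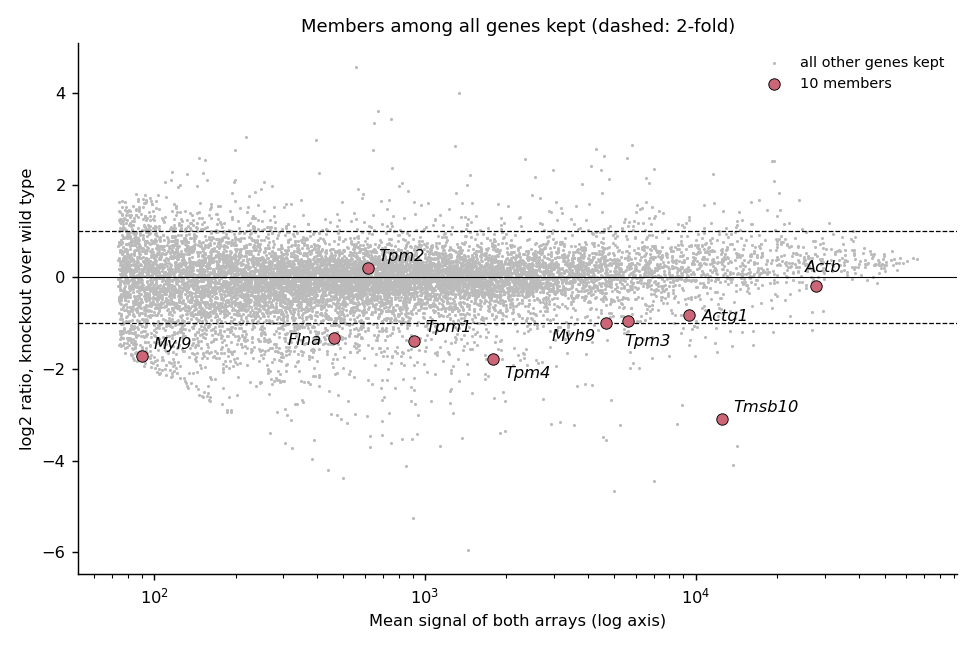
Log2 ratios (knockout over wild type) for each of 11693 genes against its mean signal on both arrays, on a log axis, with the 10 members in red and 2-fold marked by dashed lines. Tmsb10 stands at -3.09 at a high signal, 5 other members lie below the lower line, and Tpm2 is the member above 0.

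The arrays were also put on 6 other scales. Tmsb10, Tpm1, Tpm4 and Flna were at least 2-fold lower with each, Actg1, Tpm3 and Myh9 had a negative ratio with each, and Tpm2 a positive one. Actb had a negative ratio with 5 of the 6 and turned to 0.12 when scaled on its own probe sets. The count of members past 2-fold was 7 with array-median centring, quantile normalization, loess and the hybridisation controls, beside 10.3%, 8.5%, 8.95% and 10.9% of all genes lower by as much. It was 5 with the poly-A controls and with Actb, beside 6.81% and 5.34% of all genes. Each of these counts includes Myl9, whose call the floor and filter fixed. The median of all genes moved with the scale, from -0.16 with the hybridisation controls to 0.15 with the poly-A controls and 0.30 with Actb, against -0.02 as deposited. Set against those, the members' medians were -1.30, -0.99 and -0.85.

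**Figure D3:**
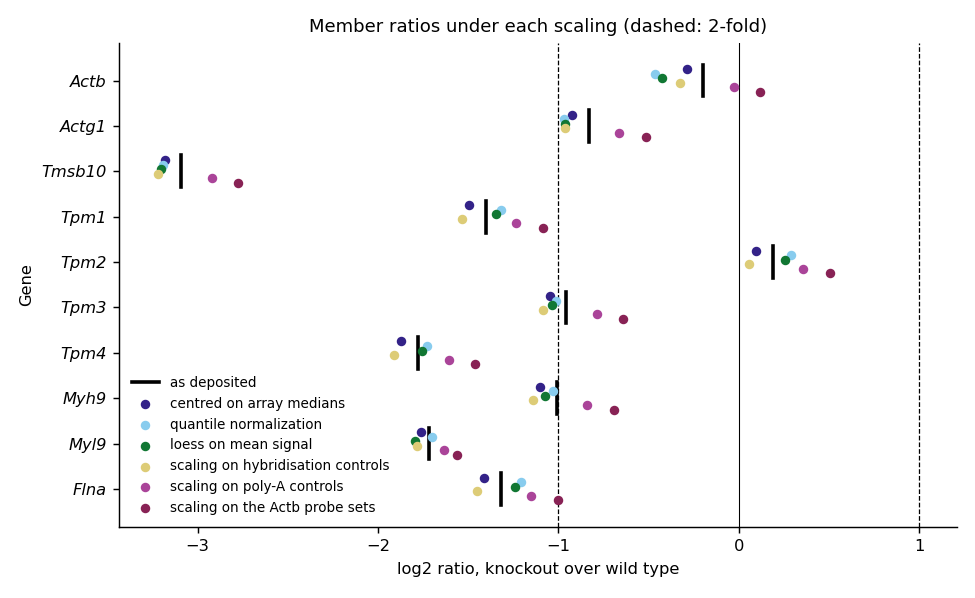
Log2 ratios (knockout over wild type) for each member as deposited (black bar) and under 6 other scalings (coloured points), with 2-fold marked by dashed lines. Points of Tpm3 and of Myh9 lie on both sides of the lower line, and Actb crosses 0 only when scaled on itself.

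The rest of the actin machinery was read from 7 lists of genes by role. Of 81 distinct genes listed, 62 were kept, 55 of these had a negative ratio, 17 were at least 2-fold lower and 1 was 2-fold higher, with a median of -0.54. Over all 11693 genes kept, 6101 had a negative ratio, 8.96% were at least 2-fold lower and 3.83% at least 2-fold higher. Medians of the lists were between those of the members and of all genes for all but muscle actins and smooth muscle genes, where few genes were kept.

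Genes for the monomer pool and filament turnover were mostly lower: 17 of 19 kept had a negative ratio, 5 were past 2-fold downwards and 1 upwards, and the median was -0.57. The lowest were Limk1 (-2.32), a kinase that inactivates cofilin, Pfn2 (-2.17), a profilin that feeds actin monomers to growing filaments, and Capg (-1.97), which caps filament ends. The highest were Cap2 (1.13), an actin-monomer recycling protein, Cfl2 (0.04) and Limk2 (-0.01). Tmsb4x, the main thymosin beta and the close relative of Tmsb10, read 28545 and 15904, a log2 ratio of -0.84 beside -3.09 for Tmsb10.

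The Arp2/3 complex, which starts branched filaments, differed little. Of its 6 genes kept, 5 had a negative ratio and 0 passed 2-fold, with a median of -0.21 that was -0.04 with the poly-A controls and 0.10 with Actb as the scale. Arpc5 (-0.67), Actr3 (-0.51) and Arpc4 (-0.30) were lowest. Arpc5l (0.10), Arpc2 (-0.10) and Arpc1a (-0.12) were highest. Tropomodulins, which cap the slow-growing filament end along tropomyosin, and caldesmon had 3 of 5 genes kept and 0 past 2-fold: Cald1 (-0.54), Tmod3 (-0.24) and Tmod1 (-0.03).

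The other genes of myosin II had 8 of 9 kept with a negative ratio and 2 at least 2-fold lower, and the median was -0.36. The heavy chains Myh14 (-1.20) and Myh10 (-1.06) were lowest, beside Myh9 at -1.01, followed by the light chain Myl12a (-0.90). The phosphatase subunit Ppp1cb (0.08), the light chain kinase Mylk (-0.02) and the phosphatase-targeting subunit Ppp1r12a (-0.22) were highest. The heavy chains had the lower ratios and the enzymes that act on the light chains the higher ones; whether they differ was not tested.

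Of 20 crosslinkers, bundlers and linkers kept, 18 had a negative ratio, 6 of them 2-fold or more, 0 were 2-fold higher, and the median was -0.45. Pls1 (-1.89), a plastin that bundles filaments, Tagln2 (-1.79), a transgelin, and Evl (-1.69), which speeds filament growth, were lowest. Pls3 (0.51), another plastin, Rdx (0.44), the radixin that ties actin to the canalicular membrane of hepatocytes, and the focal adhesion protein Zyx (-0.04) were highest.

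Among the muscle actins, Acta2, the alpha smooth muscle actin of myofibroblasts and vessel walls, was the sole one kept. Its single kept probe set read 661 and 150, which is 4.39-fold lower, with a log2 ratio of -2.13. The name of that probe set has an ending that marks several transcripts. Actg2 lay below the floor on both arrays, and Acta1 and Actc1 on 1 array each. Of 12 smooth muscle genes, 5 were kept and 4 of these were at least 2-fold lower: Acta2, Des (-1.79), the intermediate filament protein of muscle and stellate cells, Tagln (-1.56) and the calponin Cnn2 (-1.42). Cnn3 (0.60), a calponin of many cell types, was the other. Of those not kept, Actg2, Cnn1, Lmod1 and Myocd were below the floor on both arrays. Myh11, the smooth muscle myosin heavy chain, read 41.8 and 68.0 and Synpo2 29.5 and 56.7, under the floor in the wild type, and Smtn read 91.2 and 42.5, under it in the knockout.

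**Figure D4:**
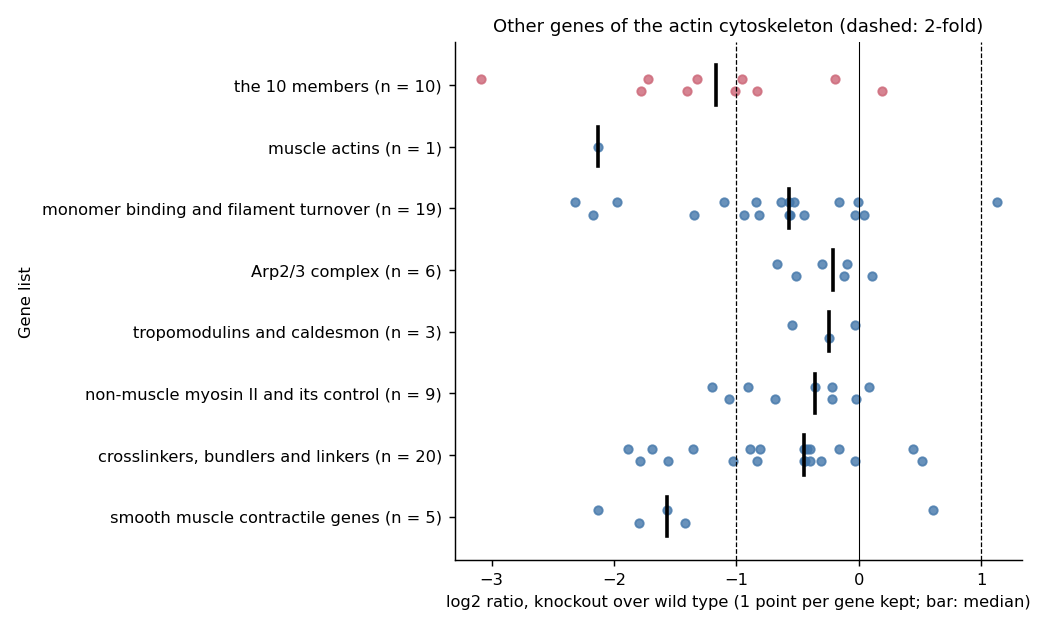
Log2 ratios (knockout over wild type) for the members (red) and for the kept genes of 7 lists (blue), with the median of each as a bar and 2-fold marked by dashed lines. The members' median is -1.16, the Arp2/3 complex lies within 2-fold, and Cap2 is the sole list gene past the upper line.

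Markers of 9 cell types were read as well. Lists with 6 markers at least 2-fold lower are given first, and the order says nothing of how rich the cells are in these proteins. Over all genes kept, 8.96% were at least 2-fold lower and 3.83% at least 2-fold higher. Of 10 stellate cell and fibroblast markers, 9 had a negative ratio and 6 were at least 2-fold lower, and their summed signals were 41295 and 21102. They ran from Col3a1 (-3.56) to Reln (0.03), and none lay below the floor on both arrays. Of 6 general leukocyte markers kept, 6 were at least 2-fold lower, from S100a8 (-1.73) to Ptprc (-1.21), with summed signals of all 8 listed of 6548 and 2484, and Cd79a below the floor on both arrays. Of 7 bile duct cell markers kept, 6 were lower by 2-fold or more, from Tspan8 (-2.96) to Krt23 (0.04), with summed signals of 2845 and 769. The part of these cell types in the members' ratios was not tested.

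Other markers moved less or both ways, or few of them were kept. Hepatocyte markers had positive ratios in 8 of 8 cases as deposited, from Ahsg (0.18) to Tat (1.22), with a median of 0.35 that was 0.03 after quantile normalization. Their summed signals of 299452 and 400539 were the highest of the marker lists, as the labelled tissue, liver, would have. Endothelial markers had a median of -0.24, or 0.08 with scaling on Actb, from Vwf (-1.20) to Clec4g (0.41), with summed signals of 8170 and 7565. Macrophage markers had 1 of 8 at least 2-fold lower, Cd68 (-2.11), and 3 higher, up to Cd163 (at least 23.9-fold), with summed signals of 24524 and 21127; the 3 higher ones had wild-type signals under the floor and could not have lain within 2-fold. Of the smooth muscle cell and pericyte markers, 3 of 7 were kept, from Acta2 to Rgs5 (-0.56), with summed signals of 7435 and 4602. Of 4 platelet markers kept, 3 had a positive ratio, up to Ppbp (0.48), and the median was 0.34. Their summed signals were 1837 and 1014, of which Pf4 (-1.75) made up 1359 and 405, and Gp9 was below the floor on both arrays. In skeletal muscle, Ckm (1.05) was the single marker of 6 kept, with summed signals of 194 and 410, and Myh4 and Tnnc2 were below the floor on both arrays.

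**Figure D5:**
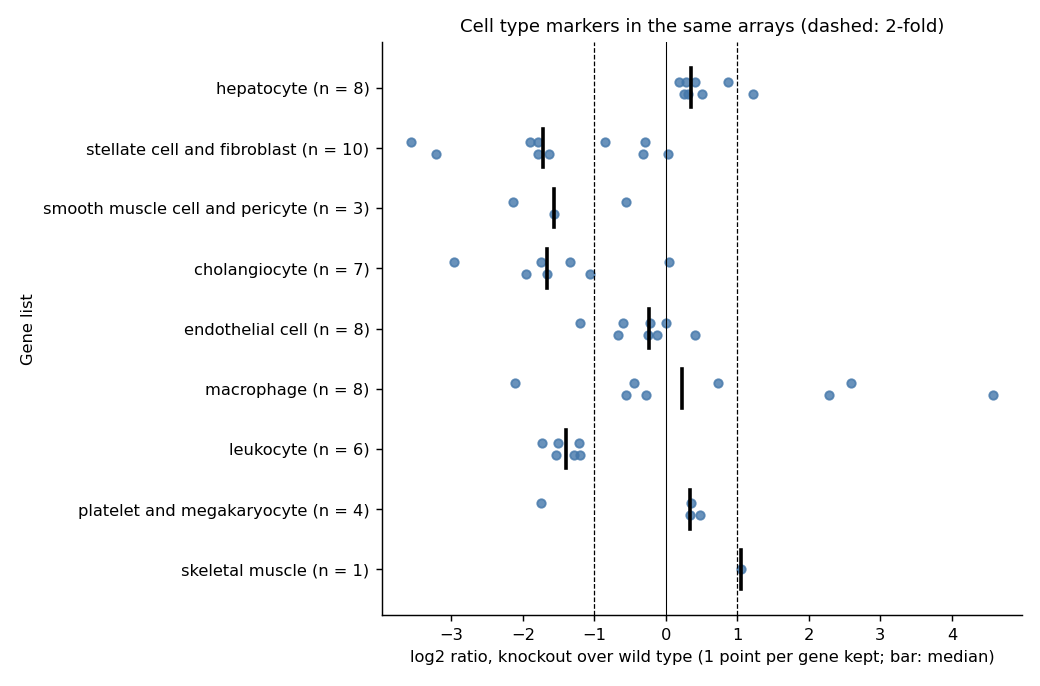
Log2 ratios (knockout over wild type) for kept markers of 9 cell types, 1 point per gene, with medians as bars and 2-fold marked by dashed lines. Stellate cell, bile duct cell and leukocyte markers lie mostly left of -1 and hepatocyte markers right of 0.

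Checks of the arrays were as follows. Kdm3a read 719.9 and 61.6 by its single probe set, 11.7-fold lower; whether that probe set lies in the deleted part is not known. The ratio of 3′ to 5′ signal of the Actb control probe sets, a sign of RNA integrity, was 1.85 and 1.99, and that of Gapdh 0.701 and 0.654. The 3 control probe sets of Gapdh had log2 ratios from -0.37 to -0.24, and those of 18S ribosomal RNA from 0.80 to 0.92. The part of RNA quality in the members' ratios was not tested.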

How the data were processed

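Per the labels' protocols, cRNA labelled with biotin was made from 250 ng of total liver RNA by the Affymetrix procedure. The deposited values are linear intensity values per probe set, and the submitters' processing notes name MAS5; its settings, the detection calls and the build used are not stated there. Both arrays had a trimmed mean (2% off each end) of 500.004, so they had been scaled before deposit. The number of arrays limits the precision.

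Of 45101 probe sets, 64 controls were left out. The platform annotation named 1 gene for 34945, several for 932 and none for 9160; 34741 were matched by gene identifier to RefSeq names of GRCm38.p6. Floor and filter were the 40th percentile of all signals and the 50th of mean signals. A difference of at least 2-fold was counted. The counting was tested on simulated data, with changes well past 2-fold planted in bright genes only. That check does not cover ratios near 2-fold or signals near the floor. Python 3.11.15, numpy 2.4.6, pandas 2.3.3, scipy 1.17.1 and statsmodels 0.14.6 (loess, span 0.3) were used.

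Alternatives were other scalings, filters, floors, summaries of probe sets and size rules. The members, the lists and the CArG and TATA motifs were chosen with earlier results of these data known. A pathway list that was chosen with the others is not reported here. Genes named were all members, Kdm3a, up to 3 lowest and 3 highest of each list and the lowest and highest marker of each cell type. Tmsb4x, and the remaining genes given for smooth muscle and the marker genes below the floor, were chosen after their values were seen, as were the GC, CCAAT and AP-1 motifs.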

Additional observations from a re-analysis of the deposited data

How the results depend on the processing

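No paired analysis was possible because each group has 1 array, and for the same reason no array could be left out. Of 404 recomputed values, 371 kept their place, 33 moved by more than the SD between probe sets of a gene (1.5 times for counts), and 0 of those past 2-fold changed sign. Of the 344 log2 values among them 6 changed sign, all from within 2-fold: Tpm2 to -0.36 with the mean of probe sets, the macrophage and platelet medians with the filter at the 70th percentile (below), and, with scaling on Actb, Actb to 0.12 and the medians of the Arp2/3 complex to 0.10 and of endothelial cells to 0.08. The median over the members measured stayed between -1.36 and -0.85, and members at least 2-fold higher stayed at 0 throughout. The value of -1.36 came from a setting with 6 members, given below. With all 10 members the lowest median was -1.30, with scaling on the hybridisation controls. Members past a 3-fold rule numbered 3, beside 409 of the 11693 genes kept, and they include Myl9, whose fold is a bound. A further setting left out probe sets with names ending in _s_at, _x_at, _a_at or _f_at. These endings mark several transcripts, which for _a_at can be forms of the same gene. With it 6 members were measured and 4 were 2-fold lower, beside 8.61% of all genes. The 4 include Myl9, whose call the floor and filter fixed. Of the 5 members with both signals at or above the floor, 3 were lower. Actg1, Tmsb10, Tpm2 and Tpm3 had no reading in this setting. Myl9 had a ratio of -2.47 with the floor at the 20th percentile or none, and fell out with the filter at the 70th.

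Over all genes, 2-fold lower genes numbered 564 with the filter at the 70th percentile, 624 with scaling on Actb, 2038 past 1.5-fold and 409 past 3-fold. Higher genes numbered 210 with that filter, 685 with poly-A scaling, 250 with the floor at the 60th percentile, 1020 with scaling on Actb, 1296 past 1.5-fold and 102 past 3-fold.

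List medians that moved, in log2, were these. With no filter they were -0.34 for muscle actins, 0 for smooth muscle contractile genes, -0.56 for smooth muscle cells and pericytes and 0.25 for skeletal muscle, since genes under the filter then enter, some of them at 0. With the filter at the 70th percentile they were -1.24 for stellate cells, -2.35 for cholangiocytes, -0.36 for macrophages and -0.71 for platelets, over fewer genes. With the floor at the 60th percentile they were -1.04 for smooth muscle contractile genes and also for smooth muscle cells, -1.002 for stellate cells, -0.85 for cholangiocytes and 0.26 for skeletal muscle. Averaging probe sets gave 0.33 and scaling on Actb 1.502 for skeletal muscle. Without probe sets whose name endings mark several transcripts, smooth muscle cells were at -1.06 and macrophages at 0.73. Acta2 had no reading in that setting. The 2 kept probe sets of Ckm, the sole skeletal muscle marker kept as deposited, were at -0.38 and 1.05. The cause of the other shifts was not tested.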

Other observations

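Several genes of the actin lists had kept probe sets that went opposite ways, a spread that the value of the brightest probe set does not show. These were picked after their values were seen. The log2 ratios of Ezr, the ezrin that ties actin to membranes, ran from -0.89 to 3.16 over 2 probe sets, and those of Arpc5l from -0.47 to 1.70 over 3. Palld, a stress fibre scaffold, ran from -0.78 to 1.19 over 3 and Zyx from -0.04 to 1.01 over 2. The 2 probe sets of Tagln2 were both lower, at -4.31 and -1.79, as were the 2 of Limk1, at -2.32 and -0.55. Among the markers named above, Tspan8 ran from -2.96 to 0.69 over 3 kept probe sets and Ckm from -0.38 to 1.05 over 2.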
